A study of Mus musculus with 9 samples.

Results

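The LY6 surface antigens of monocytes described here are the products of 5 mouse genes, Ly6c1, Ly6c2, Ly6a, Ly6e and Ly6i, chosen by symbol from the 54532 genes with an FPKM value (fragments per kilobase, a level scaled to gene length and to library size). All 5 were found, and all 5 also had a row among the 9877 genes of the deposited count table. The RNA came from sorted M-MDSCs, the monocytic kind of myeloid-derived suppressor cell, which holds back T cell responses, in mice that carried tumours of the colon carcinoma line MC38. There were 3 libraries each from LILRB4+/+ SCG2-/- mice, LILRB4+/+ mice and WT mice, so that LILRB4+/+ was shared by the first pair of genotypes and the tumour by all of them. LILRB4 is an inhibitory receptor of myeloid cells and SCG2 is the secreted protein secretogranin II, and the title of the study concerns their interaction. Left unsaid in the labels are the nature and promoter of the LILRB4+/+ allele, how SCG2 was removed, the sorting gate, the age of the mice and the mouse behind each library. The p-values therefore cover only variation among these libraries, some or all of which may be technical.

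LY6 proteins are small cysteine-rich proteins that are held in the outer leaf of the plasma membrane by a glycosylphosphatidylinositol (GPI) anchor and carry a single LU domain. Antibodies to Ly6C, the product of Ly6c1 and Ly6c2, separate inflammatory monocytes and M-MDSCs from other cells in the mouse, while Ly6G marks neutrophils. Ly6a encodes stem cell antigen Sca-1, found on haematopoietic stem cells, endothelium and activated lymphocytes, and Ly6e encodes a thymocyte antigen that also restricts coronavirus entry. Ly6i encodes a close relative found on monocytes and macrophages. Several of these genes are known to be induced by interferons.

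The 5 genes lay in 1 cluster on chromosome 15 (GRCm38, whose annotation has the same coordinates as the deposited table for these genes). In order along the chromosome they were Ly6e (ENSMUSG00000022587, chr15:74955051-74959905, plus strand), Ly6i (ENSMUSG00000022586, chr15:74979534-74983430, minus strand) and Ly6a (ENSMUSG00000075602, chr15:74994877-74998031, minus strand). Ly6c1 (ENSMUSG00000079018, chr15:75044018-75048830, minus strand) and Ly6c2 (ENSMUSG00000022584, chr15:75108158-75111970, minus strand) followed. The table held 13 genes over the 204 kb from the start of Ly6e to the end of Ly6g, and only 1 of the other 8, the transcribed pseudogene I830127L07Rik, reached a mean of 1 FPKM over the 9 libraries.

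The first coding exon, which encodes most of the signal peptide, shows how close the copies are. It was 70 bases long in each gene, and the 5 exons are printed from the reference annotation and genome with capitals at each base that differs from Ly6c1 at the same position.
Ly6c1: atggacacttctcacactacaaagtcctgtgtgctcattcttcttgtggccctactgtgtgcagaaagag
Ly6c2: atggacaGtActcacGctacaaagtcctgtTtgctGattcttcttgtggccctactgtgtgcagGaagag
Ly6a: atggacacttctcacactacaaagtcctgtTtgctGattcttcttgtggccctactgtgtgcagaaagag
Ly6i: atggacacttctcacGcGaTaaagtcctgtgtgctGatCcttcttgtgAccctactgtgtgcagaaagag
Ly6e: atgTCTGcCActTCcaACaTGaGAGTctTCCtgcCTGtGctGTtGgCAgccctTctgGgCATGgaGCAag
These exons lie at chr15:75048442-75048511 in Ly6c1, chr15:75111598-75111667 in Ly6c2, chr15:74997535-74997604 in Ly6a, chr15:74982990-74983059 in Ly6i and chr15:74957808-74957877 in Ly6e. In this exon Ly6a differed from Ly6c1 at 2 bases, Ly6c2 and Ly6i at 6 each, and Ly6e at 37. Over the whole coding sequence the order was another, with Ly6c1 and Ly6c2 identical at 97.7% of 393 aligned positions (9 mismatches). Ly6a and Ly6i were identical at 86.3%, Ly6c1 and Ly6a at 81.8%, and Ly6e at 49.8% to 52.7% to each of the others.

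Such similarity limits how reads can be assigned. Of the distinct 100-base words in the transcripts of Ly6c1, 10.1% also occurred in a transcript of another annotated gene, against 5.81% for Ly6c2, 1.45% for Ly6a and 0% for Ly6i and Ly6e. At 50 bases the shares were 32.8% for Ly6c1, 19.0% for Ly6a, 14.4% for Ly6c2, 4.76% for Ly6i and 0% for Ly6e. The main partner of Ly6c1 and Ly6c2 was each other, and that of Ly6a was Ly6c1. The read length and the handling of reads with several matches were details not given in the sources used here. The levels of Ly6c1, Ly6c2, Ly6a and Ly6i are therefore uncertain, while Ly6e shared no word of these lengths. The shares count exact words over all annotated transcripts and leave out near matches, so they do not measure how far the levels may be off. For Ly6c2 they include a transcript of 2680 bases, beside 822 bases for the principal one.

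The upstream sequences of Ly6c1 and Ly6c2 are shown because the ratio of these near copies varied between libraries, as given further on. The 250 bases before each start are from the RefSeq promoter table (GRCm38.p6), at chr15:75048838-75049087 for Ly6c1 and chr15:75111972-75112221 for Ly6c2, both on the minus strand, with capitals at the core motif of the myeloid factor PU.1 (GAGGAA on either strand).
Ly6c1: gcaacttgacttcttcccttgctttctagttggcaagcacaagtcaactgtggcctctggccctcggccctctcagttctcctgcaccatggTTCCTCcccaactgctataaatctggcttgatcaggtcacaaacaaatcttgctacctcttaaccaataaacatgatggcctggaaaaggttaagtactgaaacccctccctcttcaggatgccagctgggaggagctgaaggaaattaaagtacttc
Ly6c2: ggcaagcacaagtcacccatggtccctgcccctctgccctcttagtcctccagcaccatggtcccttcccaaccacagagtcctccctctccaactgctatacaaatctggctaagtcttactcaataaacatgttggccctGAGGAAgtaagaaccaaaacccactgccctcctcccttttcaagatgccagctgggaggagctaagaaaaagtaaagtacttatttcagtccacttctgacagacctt
The windows are offset against each other, and their alignment of 284 positions has 31 unpaired positions at the ends. Over the other 253, gaps included, the 2 sequences were identical at 64.8%. The PU.1 core was found once in each, 158 bases before the start of Ly6c1 and 108 bases before that of Ly6c2, and in 23.1% of all 27025 promoters of this length. The interferon-gamma activated site (TTCNNNGAA), the core of the interferon-stimulated response element and an NF-kB motif, also searched on both strands, were in neither window, and were found in 7.18%, 3.04% and 1.40% of all promoters.

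Ly6e and Ly6a were the most abundant members and Ly6i the least abundant in every genotype, on the FPKM scale. Ly6e averaged 139 ± 10.6 FPKM in LILRB4+/+ SCG2-/- libraries, 189 ± 23.9 in LILRB4+/+ libraries and 219.7 ± 75.4 in WT libraries (SD, n = 3 each, as for every mean given with ±). Ly6a averaged 142 ± 15.6, 127 ± 17.4 and 229.7 ± 68.7 FPKM in the same genotype order. The levels of Ly6e and Ly6a overlapped within LILRB4+/+ SCG2-/- and within WT libraries, so their order there does not exceed the spread. The lengths in the deposited table bear on levels between genes but not between libraries. They exceed the principal annotated transcript in 4 members, at 3784 against 2281 bases for Ly6e, 1205 against 819 for Ly6a, 1677 against 844 for Ly6c1 and 2740 against 822 for Ly6c2, and equal it at 1156 bases for Ly6i.

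Ly6c1 and Ly6c2, the Ly6C genes, came next in mean FPKM, and their order depended on the gene length used. Ly6c1 averaged 60.8 ± 14.0 FPKM in LILRB4+/+ SCG2-/- libraries, 48.2 ± 9.21 in LILRB4+/+ libraries and 96.0 ± 22.4 in WT libraries. Ly6c2 averaged 33.4 ± 4.49, 49.6 ± 2.43 and 67.9 ± 34.6 FPKM in the same genotype order. Its LILRB4+/+ mean includes a replicate 1 value for which FPKM and deposited count differ, as given further on. In FPKM as deposited, Ly6c2 was below Ly6c1 without overlap in LILRB4+/+ SCG2-/- libraries, while both overlapped in the other genotypes. Scaled to the principal transcripts, an alternative chosen after seeing the data, Ly6c2 and Ly6c1 overlapped in LILRB4+/+ SCG2-/- (means of 111 and 121 FPKM) and in WT (226 and 191), and Ly6c2 was above Ly6c1 without overlap in LILRB4+/+ (165 and 95.8). Ly6e and Ly6a stayed the highest in mean and Ly6i the lowest on that scale. Ly6i averaged 9.41 ± 1.94, 13.2 ± 2.15 and 20.1 ± 11.0 FPKM, without overlap with any other member in any genotype.

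**Figure D1:**
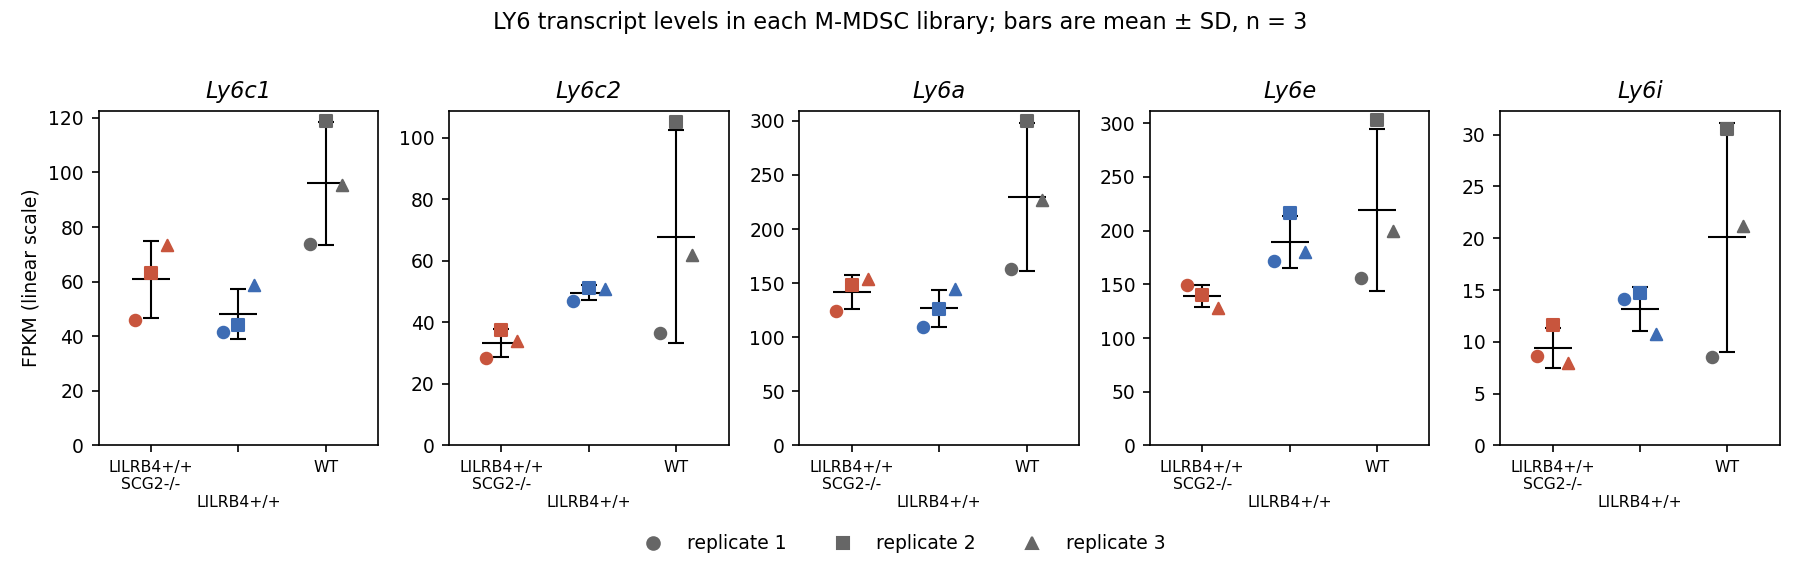
FPKM of each LY6 gene in each M-MDSC library, with LILRB4+/+ SCG2-/- libraries at the left, LILRB4+/+ in the middle and WT at the right. Points are libraries with a marker for each replicate number, and bars are mean ± SD of 3 libraries. WT replicate 2 is the highest of the 9 libraries in all 5 panels.

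By SD, WT libraries varied most for all 5 members. WT replicate 2 had the highest level of all 9 libraries for each of the 5 members, at 119 FPKM for Ly6c1, 105 for Ly6c2, 299.9 for Ly6a, 303 for Ly6e and 30.5 for Ly6i. Added up over the 5 genes, the level was 357, 401 and 397 FPKM in the LILRB4+/+ SCG2-/- libraries, against 384, 453 and 445 FPKM in the LILRB4+/+ libraries and 438, 857 and 605 FPKM in the WT libraries. Fold changes of the 5 members against WT are therefore also given without that library, while those of other genes and lists include it.

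**Figure D2:**
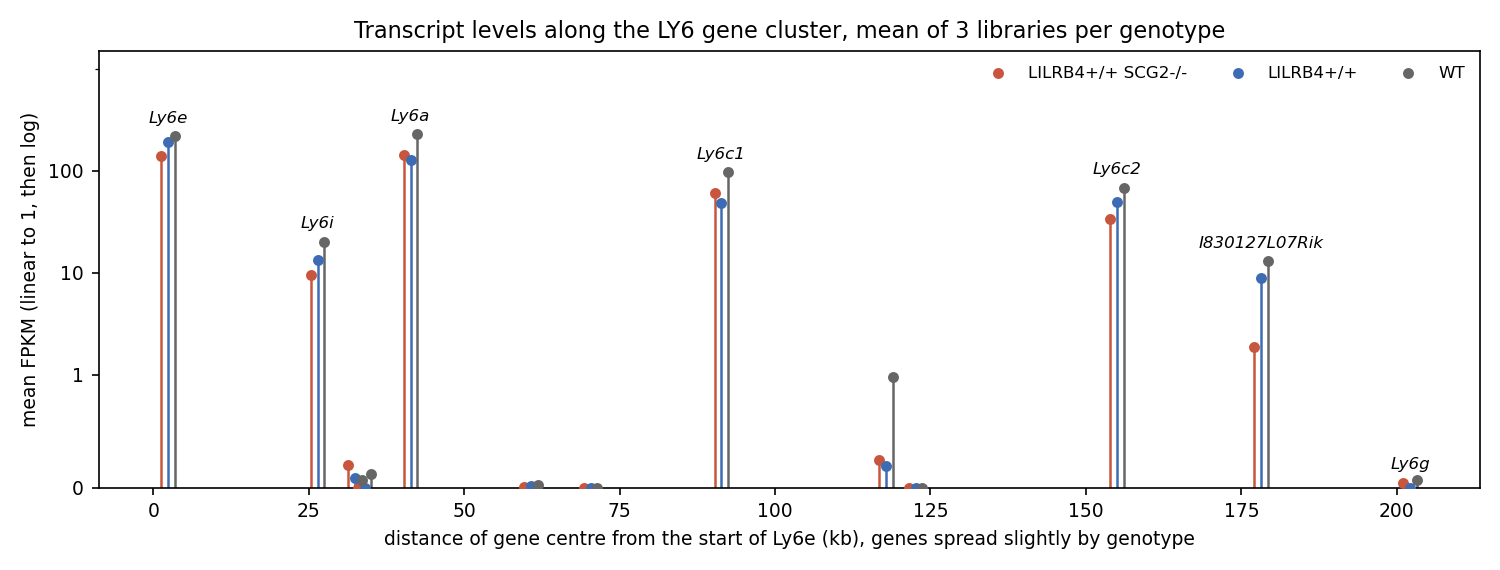
Mean FPKM of the 13 genes between Ly6e and Ly6g by distance from the start of Ly6e, with LILRB4+/+ SCG2-/- to the left of LILRB4+/+ and WT at each gene. Only the 5 members and the pseudogene I830127L07Rik reach a mean of 1 FPKM over the 9 libraries, and Ly6g is near 0.

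LILRB4+/+ libraries were first set against WT libraries, the comparison of the LILRB4 genotype alone. In bulk RNA, fewer cells of a type and less RNA per cell cannot be told apart, here and in all results that follow. Ly6c1 fell to 0.495 of its WT level, the only member to pass the test across all genes, and Ly6a stood at 0.542 of its WT level without passing. The log2 differences of Ly6c2 and Ly6e from WT were close to their errors, and that of Ly6i, at 0.644 of its WT level, did not pass either. Over the 9877 genes tested, 171 (1.73%) were higher and 51 (0.516%) lower by this test, 2.25% in all, so 1 of 5 members lower is to be read against that background.

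Ly6c1, one of the Ly6C genes, had 41.7, 44.2 and 58.8 FPKM in the LILRB4+/+ libraries, against 73.8, 119 and 95.4 FPKM in the WT libraries (replicates 1 to 3, as throughout). Every LILRB4+/+ library was below every WT library. The log2 fold change was -1.01 ± 0.23 (SE) and the edgeR adjusted p was 0.0456. Ly6a, which encodes Sca-1, had 109.5, 126 and 144 FPKM in LILRB4+/+ and 163, 299.9 and 226 in WT. These groups did not overlap either, and the log2 fold change was -0.88 ± 0.21 (SE) and the edgeR adjusted p was 0.0547, over the threshold of 0.05. Groups without overlap were found for 25.1% of the 9877 genes in this comparison, against which the 2 of 5 members are to be read.

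Ly6c2, the other Ly6C gene, had 46.8, 51.3 and 50.8 FPKM in LILRB4+/+ libraries and 36.7, 105 and 62.0 in WT libraries. Its WT libraries lay on both sides of the LILRB4+/+ ones, and the log2 fold change was -0.28 ± 0.31 (SE) and the edgeR adjusted p was 0.618. Ly6c2 is also the single member for which the deposited tables are not the same. The count table gives 3109 for LILRB4+/+ replicate 1, and the count recovered from its FPKM is 2109, lower by exactly 1000. With the recovered counts its log2 fold change was -0.46 ± 0.30 (SE) and the edgeR adjusted p was 0.409.

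Ly6e had 171, 216 and 180.1 FPKM in LILRB4+/+ libraries and 156, 303 and 199.9 in WT libraries, with a log2 fold change of -0.24 ± 0.22 (SE) and an edgeR adjusted p of 0.535. Ly6i had 14.1, 14.7 and 10.7 FPKM in LILRB4+/+ libraries and 8.55, 30.5 and 21.2 in WT libraries, with a log2 fold change of -0.63 ± 0.36 (SE) and an edgeR adjusted p of 0.315. In both genes WT replicate 1 was below all LILRB4+/+ libraries and WT replicate 2 above them.

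The call of Ly6c1 was near the threshold. It was lost with the recovered counts of all 15743 genes (log2 fold change -1.003, edgeR adjusted p = 0.0590), where 0.813% of genes were called higher and 0.0572% lower, 0.87% in all. With recovered counts of the count table's genes alone it held (edgeR adjusted p = 0.0483). With 1 library left out the log2 fold change was -1.18 to -0.82, and the call held only without LILRB4+/+ SCG2-/- replicate 1 or replicate 3, not in the other 7 fits. Without WT replicate 2 the log2 fold changes were -0.82 for Ly6c1 and -0.63 for Ly6a, that of Ly6i was -0.18, and those of Ly6c2 and Ly6e turned to 0.20 and 0.073 with the deposited counts, none of them called.

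**Figure D3:**
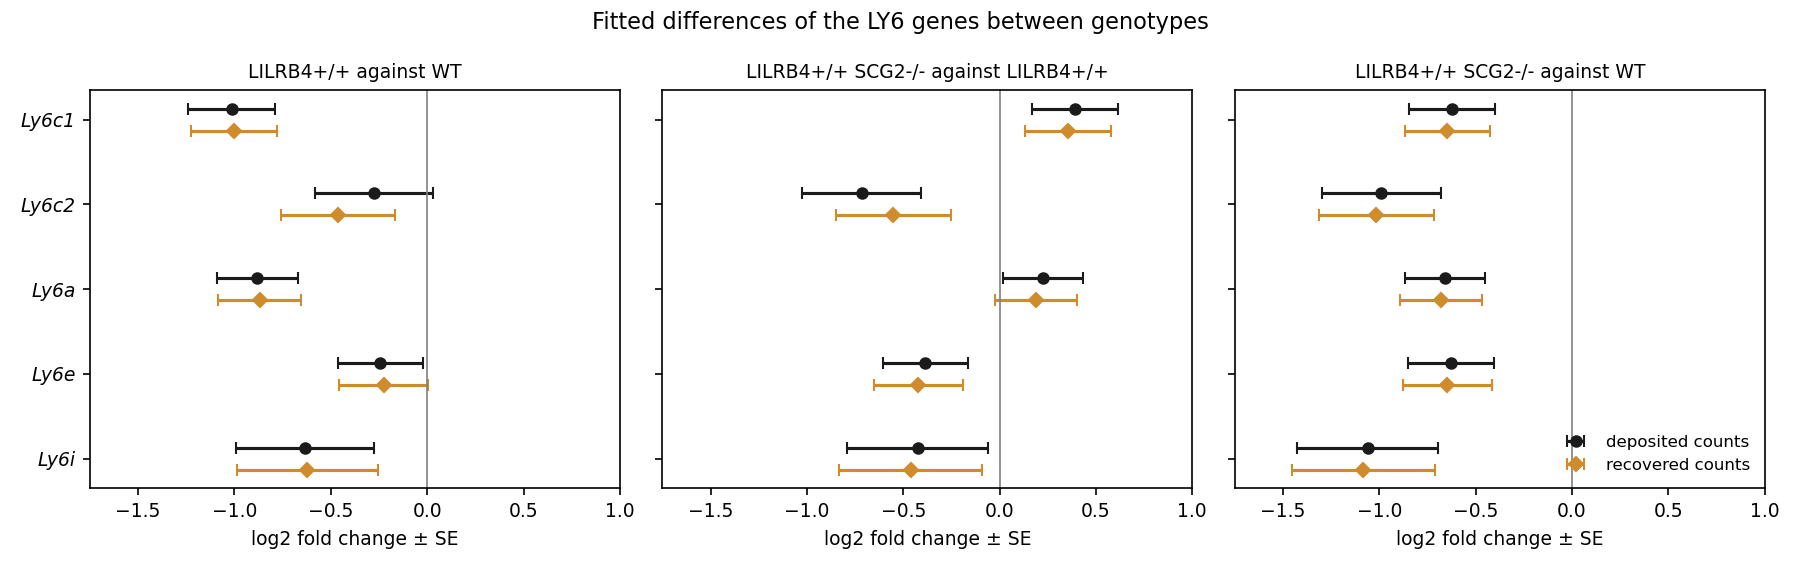
Log2 fold change ± SE of each LY6 gene in 3 comparisons, from edgeR on the deposited counts (circles) and on counts recovered from FPKM (diamonds). Values left of 0 are lower in the genotype named first, and the 2 sources part most for Ly6c2 in the comparisons with LILRB4+/+.

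LILRB4+/+ SCG2-/- libraries were next set against LILRB4+/+ libraries, the comparison of the SCG2 knockout. No member passed the test, and neither did any of the 9877 genes (0.0%) by edgeR, where 1092 genes had an unadjusted p under 0.05 and DESeq2 called 187. In sign the members parted, with Ly6c2, Ly6e and Ly6i below 0 and Ly6c1 and Ly6a above 0 in log2 fold change. On simulated counts this design recovered 51% of genes changed 2-fold and 10% of those changed 1.5-fold.

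Ly6c2 had 28.6, 37.5 and 34.0 FPKM in LILRB4+/+ SCG2-/- libraries and 46.8, 51.3 and 50.8 in LILRB4+/+ libraries. The groups did not overlap, and with the deposited counts the log2 fold change was -0.72 ± 0.31 (SE) and the edgeR adjusted p was 0.431. With the recovered counts they were -0.55 ± 0.30 (SE) and 0.632. Ly6e had 149, 140.3 and 128 FPKM in LILRB4+/+ SCG2-/- libraries and 171, 216 and 180.1 in LILRB4+/+ libraries, also without overlap, with a log2 fold change of -0.38 ± 0.22 (SE) and an edgeR adjusted p of 0.547. Groups without overlap were found for 17.4% of the 9877 genes in this comparison.

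Ly6c1 had 45.9, 63.0 and 73.6 FPKM in LILRB4+/+ SCG2-/- libraries, and 41.7, 44.2 and 58.8 in LILRB4+/+ libraries. The groups overlapped, with a log2 fold change of 0.39 ± 0.22 (SE) and an edgeR adjusted p of 0.546. Ly6a overlapped as well, at 124, 148 and 154 FPKM in LILRB4+/+ SCG2-/- libraries and 109.5, 126 and 144 in LILRB4+/+ libraries, with a log2 fold change of 0.22 (edgeR adjusted p = 0.741). Ly6i had 8.66, 11.6 and 7.96 FPKM in LILRB4+/+ SCG2-/- libraries and 14.1, 14.7 and 10.7 in LILRB4+/+ libraries, with a log2 fold change of -0.43 (edgeR adjusted p = 0.713).

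LILRB4+/+ SCG2-/- libraries were last set against WT libraries. All 5 members had a lower mean, with log2 fold changes of -1.06 for Ly6i (SE 0.37), -0.99 for Ly6c2 (SE 0.31), -0.66 for Ly6a (SE 0.21), -0.63 for Ly6e (SE 0.22) and -0.62 for Ly6c1 (SE 0.22). None passed the test, with an edgeR adjusted p of 0.317 for each, and again no gene did (0.0% of 9877 by edgeR, with 1440 at an unadjusted p under 0.05 and 92 called by DESeq2). Ly6c1, Ly6a and Ly6e did not overlap between the groups, and neither did 23.3% of the 9877 genes, while Ly6c2 and Ly6i overlapped through WT replicate 1. Without WT replicate 2 the log2 fold changes were -0.64 for Ly6i, -0.55 for Ly6c2, -0.44 for Ly6a, -0.34 for Ly6e and -0.46 for Ly6c1. This comparison shares its WT libraries with the first and its LILRB4+/+ SCG2-/- libraries with the second, so the 3 sets of values are not independent.

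Over the 5 members the median log2 fold change was -0.63 for LILRB4+/+ against WT, with 5 of 5 negative, beside a median of -0.017 over all genes tested. It was -0.38 for LILRB4+/+ SCG2-/- against LILRB4+/+, with 3 of 5 negative, beside 0.033, and -0.66 for LILRB4+/+ SCG2-/- against WT, with 5 of 5 negative, beside 0.0027. Without WT replicate 2 the members' median was -0.18 with 3 of 5 negative for LILRB4+/+ against WT, and -0.46 with 5 of 5 negative for LILRB4+/+ SCG2-/- against WT. These are descriptions of neighbouring and similar genes in 9 shared libraries.

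The Ly6C transcripts can also be compared within a library. The ratio of Ly6c2 to Ly6c1, in FPKM, was 0.622, 0.594 and 0.463 in the LILRB4+/+ SCG2-/- libraries, against 1.12, 1.16 and 0.864 in the LILRB4+/+ libraries and 0.498, 0.886 and 0.649 in the WT libraries. All 3 LILRB4+/+ SCG2-/- libraries were below all 3 LILRB4+/+ libraries, while WT overlapped both. The means were 0.560 ± 0.0853, 1.05 ± 0.161 and 0.678 ± 0.195 in the same genotype order. A two-sided exact permutation test gave p = 0.1 for LILRB4+/+ SCG2-/- against LILRB4+/+, the smallest that 3 against 3 libraries allow, 0.2 for LILRB4+/+ against WT and 0.4 for LILRB4+/+ SCG2-/- against WT, or 0.3, 0.3 and 0.4 adjusted over the 3 tests. The ratio was chosen after the levels had been seen, and it carries the uncertainty of reads shared by the 2 genes. For LILRB4+/+ replicate 1 it rests on a Ly6c2 FPKM that goes with 2109 counts. The deposited count of 3109 is 1.47 times that, and would make the ratio of this library higher. Its size depends on the gene lengths, and per principal transcript it was 0.776 to 1.04, 1.45 to 1.95 and 0.835 to 1.49 in the same genotype order. The lengths multiply every library's ratio by the same factor, so they leave the permutation tests as they are.

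**Figure D4:**
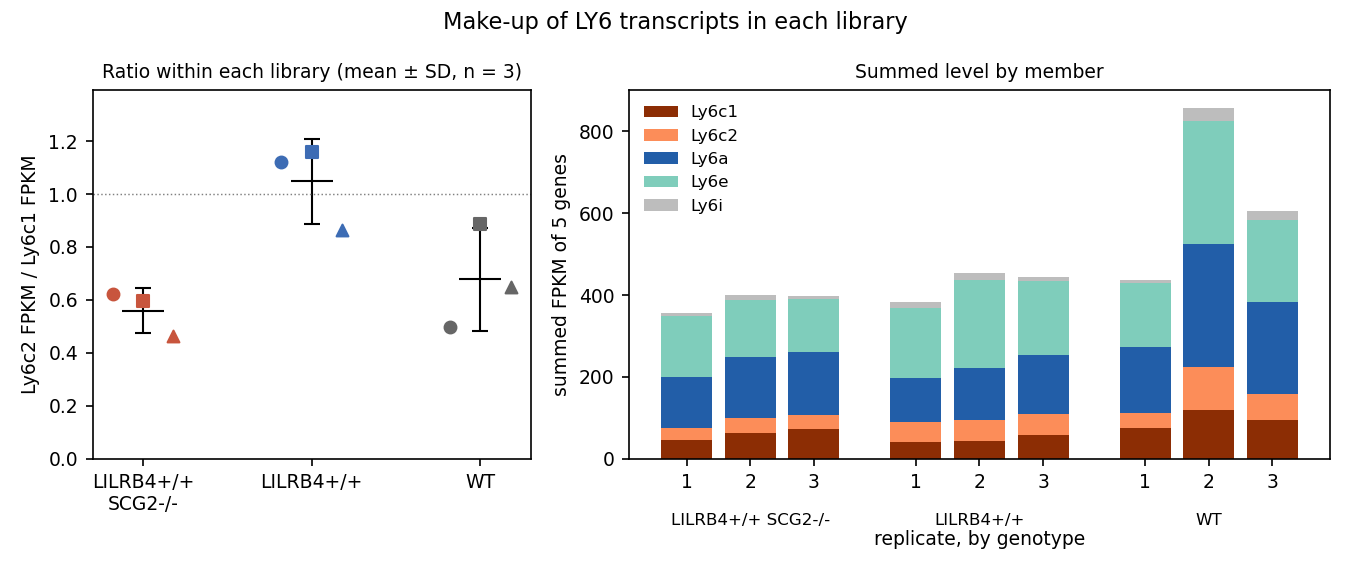
Left, ratio of Ly6c2 to Ly6c1 FPKM in each library, with LILRB4+/+ SCG2-/- left, LILRB4+/+ in the middle, WT right, and bars for mean ± SD of 3 libraries. Right, summed FPKM of the 5 genes per library in stacked bars by gene, which reach 857 in WT replicate 2 and 357 to 605 in the other 8.

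Across the 9 libraries Ly6c1 went most closely with Ly6a, and Ly6c2 with Ly6i and Ly6e, which is given as a description since libraries share genotypes, the tumour model and mixtures of cells. On log2(FPKM + 1), Pearson's r was 0.96 between Ly6c1 and Ly6a, 0.94 between Ly6c2 and Ly6i, 0.93 between Ly6c2 and Ly6e and 0.90 between Ly6e and Ly6i. It was lower between Ly6c1 and its near copy Ly6c2 (0.60) and lowest between Ly6c1 and Ly6e (0.42). Sequence shared by Ly6c1 with Ly6a and with Ly6c2 may enter their values of r, which was not tested. With genotype means taken away, r was 0.90 between Ly6c1 and Ly6a and 0.74 between Ly6c1 and Ly6c2. Ly6c2 then went most closely with Ly6a (0.93), ahead of Ly6i (0.91) and Ly6e (0.87). WT replicate 2, the highest library for every member, enters all of these values.

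Among 12425 genes with a mean of at least 1 FPKM, those most like Ly6c1 over the 9 libraries were Hoxc10, a homeobox gene (r = 0.98), Bgn, which encodes the matrix proteoglycan biglycan (0.98), Cd34, a sialomucin of progenitors and endothelium (0.97), and Ecscr, an endothelial surface protein (0.97). For Ly6a they were Tpmt, Ube2c, Pdlim1 (each 0.98) and again Ecscr (0.97). For Ly6c2 they were Snrpc (0.97), Apba3 (0.96), the interferon-induced Ifitm3 (0.96) and Tm2d2 (0.96). For Ly6e they were Tm2d2 and the galectin gene Lgals9 (each 0.99), Dcaf12 (0.98) and Agpat2 (0.97), and for Ly6i the interferon-induced GTPase gene Ifi47 (0.97), Tapbp of antigen loading (0.97), Scpep1 (0.96) and Smpdl3b (0.96). With 9 libraries and so many genes compared, these values of r are no test.

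Apart from Plaur, the rest of the family was at low levels. Of 37 other LY6 and LU-domain genes listed, 34 were in the table, 8 of them at 0 in all libraries and 6 with a mean of at least 1 FPKM over the 9 libraries. None of those tested passed in any comparison. Plaur, the urokinase receptor gene, was the most abundant, at 178 ± 38.5 FPKM in LILRB4+/+ SCG2-/-, 376 ± 86.6 in LILRB4+/+ and 251 ± 113 in WT libraries, with a log2 fold change of -1.01 for LILRB4+/+ SCG2-/- against LILRB4+/+ (edgeR adjusted p = 0.317). Slurp1, which encodes a secreted LY6 protein, had 3.08 ± 0.454 FPKM in LILRB4+/+ and 8.95 ± 3.28 in WT libraries (log2 fold change -1.56, edgeR adjusted p = 0.0731). Cd177, a neutrophil antigen gene, had 1.25 ± 0.365 FPKM in LILRB4+/+ SCG2-/- and 8.51 ± 6.38 in WT libraries (log2 fold change -2.72, edgeR adjusted p = 0.317). Ly6d, Lynx1 and Ly6g5b averaged between 1.42 and 8.37 FPKM in every genotype. Ly6g, the neutrophil antigen gene beyond Ly6c2, had 0 to 0.129 FPKM in LILRB4+/+ SCG2-/-, 0 in LILRB4+/+ and 0 to 0.198 in WT libraries, from 0 to 4 counts per library, too few for a comparison.

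Genes of the pathways around the antigens were read by count. Of 20 tested genes of GPI anchor synthesis and transfer, none passed in any comparison, and their median log2 fold changes were -0.12 for LILRB4+/+ against WT, 0.027 for LILRB4+/+ SCG2-/- against LILRB4+/+ and -0.13 for LILRB4+/+ SCG2-/- against WT. The most abundant of them were Pigs and Pigt, parts of the enzyme that attaches the anchor, and Dpm3 of mannose donor synthesis, with mean levels of 13.6 to 29.0 FPKM across genotypes. Of 24 type I interferon-stimulated genes none passed, with medians of -0.36, -0.33 and -0.49 in the same comparison order. Their most abundant members were Ifi27l2a, at 71.7 FPKM in LILRB4+/+ SCG2-/-, 139 in LILRB4+/+ and 212 in WT libraries, Bst2, at 116, 127 and 156, and Isg15, at 66.3, 98.5 and 69.2. Of 23 interferon-gamma induced genes none passed, with medians of -0.27, 0.12 and -0.16, and Cd274, the gene for PD-L1, had a log2 fold change of 1.01 for LILRB4+/+ against WT (edgeR adjusted p = 0.0609). The other abundant members, Irf1 and Cxcl10, had log2 fold changes between -0.20 and 0.28 in the 3 comparisons.

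Of 16 genes that go with Ly6C-high monocytes, none passed. Their median log2 fold changes were 0.11 for LILRB4+/+ against WT, -0.74 for LILRB4+/+ SCG2-/- against LILRB4+/+ (15 of 16 negative) and -0.54 for LILRB4+/+ SCG2-/- against WT (14 of 16 negative). Cd14, the lipopolysaccharide co-receptor gene, averaged 1157 FPKM in LILRB4+/+ SCG2-/-, 2274 in LILRB4+/+ and 1651 in WT libraries. Its log2 fold change for LILRB4+/+ against WT was 0.80 with the deposited counts and 0.45 with the recovered counts. For LILRB4+/+ SCG2-/- against LILRB4+/+ it was -1.28 and -0.95. The fibronectin gene Fn1 averaged 242, 409 and 252 FPKM. Lyz2, the lysozyme gene of myeloid cells, averaged 481 FPKM in LILRB4+/+ SCG2-/-, 15.6 in LILRB4+/+ and 66.6 in WT libraries, and did not pass either (edgeR adjusted p = 0.222 for LILRB4+/+ SCG2-/- against LILRB4+/+). Of 12 genes of Ly6C-low monocytes, the peptidoglycan recognition gene Pglyrp1 rose (log2 fold change 1.02, edgeR adjusted p = 0.0409) and the enolase gene Eno3 fell (-0.82, edgeR adjusted p = 0.0458) in LILRB4+/+ against WT with the deposited counts, beside 1.73% of all 9877 genes higher and 0.516% lower. Neither passed with the recovered counts (edgeR adjusted p of 0.0511 and 0.0698). The list's medians were 0.20, -0.28 and -0.24 in the order of comparisons above. In the other comparisons none passed, and its abundant members Cebpb, Klf2 and Nr4a1 had log2 fold changes of -0.58 to 0.85.

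The libraries also held transcripts of other cells. Myeloid markers were present, though they do not by themselves tell M-MDSCs from macrophages. Csf1r had 61.6 to 87.3 FPKM in LILRB4+/+ SCG2-/-, 98.2 to 189.6 in LILRB4+/+ and 91.8 to 138 in WT libraries. Itgam, which encodes CD11b, had 18.1 to 36.5, 39.3 to 79.1 and 29.5 to 54.1. Ccr2, of the Ly6C-high list, had 17.4 to 21.0 FPKM in LILRB4+/+ SCG2-/-, 15.1, 49.3 and 13.7 in LILRB4+/+ and 24.1 to 32.9 in WT libraries. For each of these genes replicate 2 was the highest of the WT libraries, and LILRB4+/+ replicate 2 was the highest of all libraries. Summed markers of T and NK cells came to 563 to 943 FPKM in LILRB4+/+ SCG2-/-, 159 to 965 in LILRB4+/+ and 164 to 501 in WT libraries (18 of 18 tested with a positive log2 fold change in each of the other genotypes against WT, none called), and those of B cells to 339 to 1108, 49.2 to 1064 and 100 to 808. Endothelial cells, which are among the other cells that can express Ly6c1 or Ly6a, had summed markers of 17.0 to 21.1, 13.6 to 36.4 and 12.8 to 17.5 FPKM. Of 7 tested, 7 were positive in log2 fold change in LILRB4+/+ against WT and none was called. In LILRB4+/+ SCG2-/- against LILRB4+/+ 7 of 7 were negative, and against WT 6 of 7 were positive. Of 10 fibroblast markers tested, 7 were negative in LILRB4+/+ against WT (median -0.24). In LILRB4+/+ SCG2-/- libraries 7 were positive against LILRB4+/+ (median 0.37) and 8 against WT (0.19), none called. Fibroblast markers summed to 470 to 510, 395 to 502 and 373 to 443 FPKM. Much of that sum was Pdpn, at mean levels of 152, 189 and 120 FPKM. In LILRB4+/+ against WT the log2 fold change of Pdpn was 0.63, while those of the collagen genes Col3a1 and Col1a1 were -0.28 and -0.31. Dendritic cell markers, which include Bst2 of the interferon list above, summed to 296 to 385, 263 to 385 and 314 to 364. Only Xcr1 of the 10 tested passed, as higher in LILRB4+/+ than in WT, where 1.73% of all genes did. Macrophage markers summed to 455 to 806, 664 to 1280 and 712 to 1166, and epithelial markers to 21.7 to 36.0, 22.0 to 45.5 and 22.7 to 29.8. Neutrophil markers summed to 39.9 to 55.8, 89.0 to 238 and 44.4 to 82.7 FPKM, and 2 of 6 tested, Hdc and Retnlg, passed as higher in LILRB4+/+ than in WT (edgeR adjusted p of 0.0214 and 0.0406), beside the same 1.73% of all genes. With the recovered counts Retnlg did not pass (edgeR adjusted p = 0.0597) and Hdc did (0.0230). In each of these lists every gene of the table was above 0 in at least 1 library. The part of these cells in the levels of the LY6 genes was not tested.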

How the data were processed

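Poly-A RNA of sorted M-MDSCs was sequenced with a kit that keeps the strand, per the labels' protocols. HISAT2 2.0.5 and featureCounts 1.5.0-p3 are named in the submitters' processing notes. The genome build, annotation and strand setting were details not given in the sources used here. The authors deposited raw counts for 9877 genes, with totals of 14501163 to 27219202 per library, and the authors' FPKM values for 54532 genes. Scaled by gene length and a library constant, 100% of FPKM values came out whole to within 0.01, and these whole numbers are called recovered counts. The counts in the table and the recovered ones differed at 56 of 88893 values, 1 of them in a member.

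Deposited counts of all 9 libraries were tested with edgeR 4.0.16 in R 4.3.3 (minimum count 10, TMM scaling, robust quasi-likelihood test, Benjamini-Hochberg adjustment over all genes, threshold 0.05), and "edgeR adjusted p" stands for this. Recovered counts, DESeq2 1.42.0, limma 3.58.1 on log2(FPKM + 1) or log2(FPKM + 0.1), filters, a replicate block and leaving out each library were alternatives. On simulated counts of 9877 genes, the fit of LILRB4+/+ against WT recovered 49% of genes changed 2-fold and 6% of those changed 1.5-fold, and that of LILRB4+/+ SCG2-/- against WT 58% and 4%. No library was a duplicate of another of its genotype, since any 2 libraries of a genotype held equal counts for 0.466% of genes or fewer. Libraries of different genotypes were not compared in this way.

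Sequences came from GENCODE and RefSeq, and coding sequences were aligned with Biopython 1.88. All 5 members are named. So are the 4 genes of highest r with each, the called genes of each list (up to 6) or else its 3 most abundant, and every other LY6 or LU-domain gene with a mean of at least 1 FPKM. For lists of other cells, summed levels and called genes are given. I830127L07Rik and Ly6g were chosen after values were seen. The members and lists were chosen with earlier results of these data known.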

Additional observations from a re-analysis of the deposited data

How the results depend on the processing

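Of the members' log2 fold changes under all alternatives, 423 kept their direction and side of the threshold, 23 lost the call, 1 gained it and 3 changed sign. All 23 concern Ly6c1 in LILRB4+/+ against WT. Its log2 fold change there was -1.003 with recovered counts of all genes (adjusted p = 0.0590) and -0.998 with only these 2 genotypes fitted (0.0691). With limma it was -0.97 on log2(FPKM + 1) (0.132), -0.98 on log2(FPKM + 0.1) (0.121), -0.97 for genes of mean FPKM 1 or more (0.0899) and -0.97 with no filter (0.219). It was -1.18 to -0.82 with 1 library left out, where the call held in 2 of 9 fits, and -1.18 to -0.82 with recovered counts, where it held in 0 of 9. Over all alternatives without a library left out, its adjusted p was 0.00159 to 0.219. DESeq2 called Ly6a in the same comparison (-0.86, adjusted p = 0.00379). The changed signs all came without WT replicate 2. With 1 library left out, Ly6c2 ranged from -0.56 to 0.20 and Ly6e from -0.42 to 0.073 with deposited counts, and Ly6c2 from -0.76 to -0.0016 and Ly6e from -0.42 to 0.078 with recovered counts.

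Genes called in LILRB4+/+ against WT numbered 222, against 924 with DESeq2, 137 with recovered counts, 72 with 2 genotypes, 19, 43, 102 and 0 with the limma settings in the order above, 0 to 689 with 1 library left out and 0 to 623 with recovered counts and 1 left out. For LILRB4+/+ SCG2-/- against LILRB4+/+ they were 0, against 187 with DESeq2, 2 with limma on log2(FPKM + 0.1), 0 to 1 with 1 library left out and 0 to 2 with recovered counts. For LILRB4+/+ SCG2-/- against WT they were 0, against 92 with DESeq2 and 0 to 3 with recovered counts and 1 library left out. The cause of these differences was not tested.

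Whether the replicate numbers pair the samples is not known. Same-numbered libraries had correlations of deviations of 0.66, 0.54 and -0.45 (replicates 1 to 3) in LILRB4+/+ against WT. With 3 libraries a genotype these values cannot decide it. With a replicate block that comparison called 1 gene, and Ly6c1 stood at -1.02 (adjusted p = 0.0625). With 3 libraries a genotype, differences under 2-fold would mostly be missed, and the sequence that Ly6c1 shares with Ly6c2 and Ly6a limits their separate levels.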

Other observations

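I830127L07Rik, a transcribed unprocessed pseudogene that lies between Ly6c2 and Ly6g, had 0.754, 3.15 and 1.68 FPKM in LILRB4+/+ SCG2-/- libraries, 3.43, 19.2 and 3.69 in LILRB4+/+ libraries and 2.63, 26.8 and 9.25 in WT libraries. Replicate 2 was the highest library of each genotype. With recovered counts its log2 fold change was -2.79 for LILRB4+/+ SCG2-/- against WT (SE 1.06, edgeR adjusted p = 0.357), -2.23 for LILRB4+/+ SCG2-/- against LILRB4+/+ (adjusted p = 0.590) and -0.56 for LILRB4+/+ against WT (adjusted p = 0.782). The other 6 genes of the cluster apart from Ly6g and the members averaged under 1 FPKM over the 9 libraries.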
